A study of Mus musculus with 6 samples.

Results

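Epithelial-mesenchymal transition (EMT) is the programme by which epithelial cells loosen their junctions and take on features of mesenchymal cells. The genes described here are 10 that are commonly read for it. They are 6 transcription factors (Snai1, Snai2, Zeb1, Zeb2, Twist1 and Twist2), the mesenchymal filament and adhesion genes Vim and Cdh2, and the platelet-derived growth factor receptor genes Pdgfra and Pdgfrb. They were chosen by symbol, and all 10 were found among the 23366 gene symbols of the deposited table. Epithelial cells had been isolated from the submandibular gland, a major salivary gland, and sequenced as 3 p63 knockout libraries and 3 wild-type libraries, all of adult age (12 weeks). The gene Trp63 encodes p63, which controls basal and myoepithelial cells, and the study asked how it maintains the growth capacity of salivary progenitor cells through follistatin. The labels do not say how the knockout was made, in which cells it acts, how many mice gave each library or whether other alleles were carried.

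As background, the SNAIL proteins (Snai1, Snai2) and the ZEB proteins (Zeb1, Zeb2) are zinc finger repressors that bind E-box sequences and shut off epithelial genes such as Cdh1, which encodes E-cadherin. TWIST proteins are basic helix-loop-helix factors that bind E-boxes with E-protein partners. Vimentin (Vim) and N-cadherin (Cdh2) are the filament and the adhesion protein gained in a mesenchymal state. In a healthy gland, however, the same genes also belong to resident cells: Pdgfra marks fibroblasts, Pdgfrb marks pericytes, Vim and Zeb2 are made by fibroblasts, endothelial cells and leukocytes, and Snai2 is also found in basal and myoepithelial cells.

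Values are TPM, read counts corrected for gene length and scaled to the same total of 1000000 in each library, so they keep no record of sequencing depth. Trp63 itself measured 1.59, 0.816 and 1.76 TPM in knockout libraries 1, 2 and 3, against 3.48, 1.85 and 3.68 TPM in wild-type libraries 1, 2 and 3. Trp63 was lower in every knockout library but did not pass (log2 fold change -0.74, SE 0.27, limma adjusted p = 0.27). Epithelial identity was strong in every library, with the epithelial adhesion gene Epcam at 128 to 200 TPM in knockout cells and 172 to 232 TPM in wild-type cells. Knockout library 3 had 10634 genes at 1 TPM or more, and the other libraries had 11129 to 11235. Its 50 most abundant genes held 80.3% of all TPM, against 69.2% to 75.9% in the other libraries. Genes were tested with limma, a linear model with moderated variances, on log2(TPM + 1) if they had at least 1 TPM in at least 3 libraries. Of 11268 genes tested, 44 passed at an adjusted p of 0.05, which is 0.390%: 8 were higher in the knockout (0.0710%) and 36 lower (0.319%).

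Of the 10 EMT and mesenchymal genes, 5 reached that filter (Snai2, Zeb2, Vim, Pdgfra and Pdgfrb) and 0 passed with limma, beside 0.390% of all genes tested (0.0710% higher and 0.319% lower). By unadjusted p, 2 of the 5 (Snai2 and Zeb2) were under 0.05, as were 15.4% of all genes tested. A log2 fold change of -1 or less was found in 2 of the 5 (Snai2 and Vim) and in 3.35% of all genes tested. Zeb2 reached the filter only through the wild-type libraries, so the tested genes are not a neutral sample of the 10. The clearest difference was in Snai2, whose mean in the knockout was 34.1% of that in wild type. In TPM as deposited, the SNAIL and ZEB genes were lower in every knockout library than in any wild-type library, and so was Cdh2, but most of these levels were near or below 1 TPM. In all, 5 of the 10 genes (Snai1, Snai2, Zeb1, Zeb2 and Cdh2) had groups that did not overlap with the knockout lower, and 0 had groups that did not overlap with the knockout higher (5.42% of all genes tested). Among all genes tested 15.6% had groups apart with the knockout lower. Over all genes above 0 TPM in any library, 13.6% had groups apart with the knockout lower, and among those below the filter 10.3% did. TPM were also put on another common scale, by median-of-ratios scaling or by quantile normalization over all genes above 0 TPM in any library. In either case Snai2, Zeb1 and Zeb2 were still apart and Snai1 and Cdh2 overlapped.

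**Figure D1:**
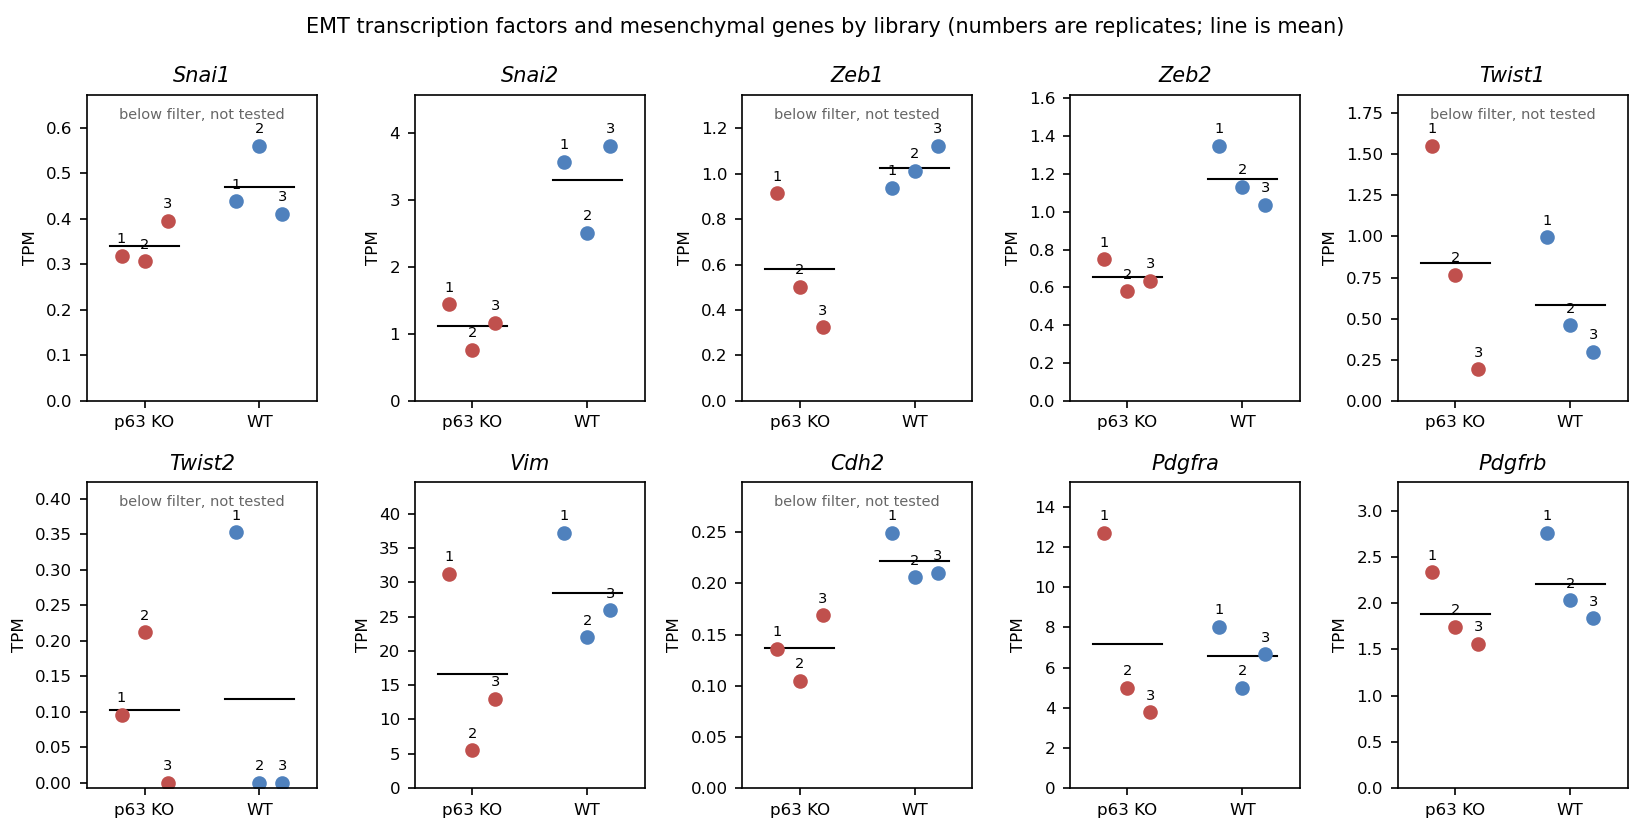
TPM (vertical axis, from 0) of each of the 10 genes in the 3 p63 knockout libraries (red, left) and the 3 wild-type libraries (blue, right). Points are libraries, numbers are replicates and lines are group means. The groups are apart for Snai1, Snai2, Zeb1, Zeb2 and Cdh2, and knockout library 1 sits among or above the wild-type libraries for Vim, Pdgfra, Pdgfrb and Twist1.

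Snai2, the SNAIL family repressor also called Slug, had the highest mean TPM over all 6 libraries of the 6 transcription factors, although Twist1 was above it in knockout libraries 1 and 2. It measured 1.44, 0.761 and 1.17 TPM in knockout libraries 1, 2 and 3, against 3.57, 2.51 and 3.80 TPM in wild-type libraries 1, 2 and 3. Every knockout library lay below every wild-type library, with a wide gap between the groups. The means were 1.12 ± 0.344 TPM in knockout cells and 3.30 ± 0.688 TPM in wild-type cells (mean ± SD, n = 3 per group). The log2 fold change was -1.02 (SE 0.22), which missed the threshold over all genes (limma adjusted p = 0.092). By exact permutation (two-sided) p was 0.1, the smallest value that 3 libraries against 3 allow. Snai2 passed without knockout library 3 (log2 fold change -1.04, adjusted p = 0.0091), a fit in which 45.5% of all genes passed, and with array weights (-1.11, adjusted p = 0.0039), where 42.8% did. Its fold change stayed between -1.49 and -0.89 over the 15 alternatives that could be computed for it.

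Markers of the basal and myoepithelial cells in which Snai2 can be found were also lower. The summed level of 9 such genes was 237, 127 and 145 TPM in the knockout libraries, against 472, 369 and 384 TPM in the wild-type libraries. All 8 of them that were tested had groups apart with the knockout lower, and 2 passed, Krt14 and Cnn1. Trp63, the gene knocked out, is in the sum and among the 8, so its value is no independent support for the list. The basal-layer keratin gene Krt14 fell to 9.19 ± 2.83 TPM in the knockout, against 38.0 ± 4.39 TPM in wild-type cells (mean ± SD, n = 3 per group; log2 fold change -1.97, SE 0.27, limma adjusted p = 0.037). Cnn1, the contractile protein calponin of myoepithelium and smooth muscle, fell to 19.5 ± 4.30 TPM in the knockout, against 65.7 ± 4.01 TPM in wild-type cells (log2 fold change -1.73, SE 0.22, adjusted p = 0.035). In these bulk samples fewer cells of a type and less RNA per cell cannot be told apart, and the part of these cells in the Snai2 difference was not tested. The Krt14 and Cnn1 calls held in 6 and 7 of 16 alternatives.

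Snai1, the other SNAIL repressor, was far lower than Snai2 and reached 1 TPM in none of the 6 libraries. It stood at 0.319, 0.307 and 0.395 TPM in the knockout libraries, against 0.438, 0.560 and 0.411 TPM in the wild-type libraries. The groups did not overlap, but the highest knockout value and the lowest wild-type value were close together, and the order did not survive the other scalings. The means were 0.340 ± 0.0480 TPM in knockout cells and 0.470 ± 0.0794 TPM in wild-type cells (mean ± SD, n = 3 per group). With no filter on low genes, limma gave a log2 fold change of -0.13 (SE 0.08, adjusted p = 0.48).

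Zeb1 was below the filter as well. It measured 0.914, 0.503 and 0.324 TPM in the knockout libraries, against 0.938, 1.01 and 1.12 TPM in the wild-type libraries. Knockout library 1 came close to the lowest wild-type library, and the other knockout libraries were well below it. With no filter, its log2 fold change was -0.37 (SE 0.16, limma adjusted p = 0.38). Zeb2, its paralogue, stood at 0.748, 0.580 and 0.636 TPM in the knockout libraries, against 1.35, 1.13 and 1.04 TPM in the wild-type libraries. The 3 knockout libraries were tightly grouped below the wild-type ones. The mean of Zeb2 in the knockout was 55.9% of that in wild type, and the log2 fold change was -0.39 (SE 0.16, limma adjusted p = 0.30, exact two-sided permutation p = 0.1). On the log2(TPM + 1) scale a change between values near 1 TPM is compressed: with a pseudocount of 0.1 TPM the same difference was -0.75 (adjusted p = 0.33). With quantile normalization of the log2 values of the tested genes it was -0.15 (adjusted p = 0.57). Whether the Zeb2 groups stayed apart in that fit was not checked.

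Leukocytes are one source of Zeb2 RNA, and their markers were also lower in the knockout. The summed level of 10 leukocyte and macrophage genes was 246, 137 and 163 TPM in the knockout libraries, against 506, 440 and 479 TPM in the wild-type libraries. Of the 10 genes, 8 had groups apart with the knockout lower and 0 passed with limma, with 7 at an unadjusted p under 0.05. Lyz2, the lysozyme of macrophages, stood at 43.7 ± 5.07 TPM in knockout cells and 94.2 ± 6.13 TPM in wild-type cells (mean ± SD, n = 3 per group; log2 fold change -1.10, SE 0.19, adjusted p = 0.059). H2-Aa, a chain of the class II antigen presentation complex, stood at 35.6 ± 19.6 TPM in knockout cells and 147 ± 5.05 TPM in wild-type cells (log2 fold change -2.14, SE 0.35, adjusted p = 0.059). The part of these cells in the Zeb2 values was not tested.

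The TWIST genes did not share the order of the SNAIL and ZEB genes. Twist1 measured 1.55, 0.768 and 0.192 TPM in the knockout libraries, against 0.995, 0.461 and 0.300 TPM in the wild-type libraries. The groups overlapped fully, with knockout library 1 the highest of all 6 and knockout library 3 the lowest. Its mean was 0.837 ± 0.681 TPM in knockout cells and 0.585 ± 0.364 TPM in wild-type cells (mean ± SD, n = 3 per group). Without a filter the log2 fold change was 0.17 (SE 0.30, limma adjusted p = 0.79). Twist2 was listed at 0.0963, 0.212 and 0 TPM in the knockout libraries, against 0.353, 0 and 0 TPM in the wild-type libraries, so its groups overlapped and no fold change is given.

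Promoter sequences are given for Snai1, Zeb2, Twist1 and Vim, whose values differ in kind. Snai1 was below the filter and Zeb2 was tested and did not pass. The groups of both were apart in TPM as deposited (Snai1 overlapped under either other scaling). The groups of Twist1 overlapped, and Vim was the most abundant of the 10. RefSeq's table for GRCm38.p6 held windows for 6 of the 10 genes, 9 in all, of which the 250 bases before the transcription start are used. The deposited values rest on another build, mm9, so the windows serve for sequence only. Each is written 5′ to 3′ on the gene's strand. Capitals mark 3 motifs, searched on both strands: the E-box bound by SNAIL and ZEB proteins (CACCTG or CAGGTG), the AP-1 site (TGANTCA) and the GC box (GGGCGG or CCGCCC).
Snai1, chr2:167537945-167538194, plus strand: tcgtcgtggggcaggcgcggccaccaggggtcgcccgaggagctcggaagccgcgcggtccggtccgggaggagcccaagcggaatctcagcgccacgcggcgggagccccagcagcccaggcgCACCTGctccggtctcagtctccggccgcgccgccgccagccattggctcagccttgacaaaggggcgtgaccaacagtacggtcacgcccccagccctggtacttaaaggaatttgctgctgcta
Zeb2, chr2:45110278-45110527, minus strand: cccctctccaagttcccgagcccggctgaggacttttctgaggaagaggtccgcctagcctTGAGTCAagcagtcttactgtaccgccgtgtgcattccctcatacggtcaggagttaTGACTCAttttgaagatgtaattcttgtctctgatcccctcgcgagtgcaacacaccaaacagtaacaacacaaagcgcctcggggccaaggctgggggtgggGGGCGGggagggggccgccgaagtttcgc
Twist1, chr12:33957421-33957670, plus strand: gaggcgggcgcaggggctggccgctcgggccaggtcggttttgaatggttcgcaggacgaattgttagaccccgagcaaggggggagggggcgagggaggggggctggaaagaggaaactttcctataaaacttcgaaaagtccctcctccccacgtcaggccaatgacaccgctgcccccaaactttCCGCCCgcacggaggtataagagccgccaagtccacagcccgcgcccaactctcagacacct
Vim, chr2:13574061-13574310, plus strand: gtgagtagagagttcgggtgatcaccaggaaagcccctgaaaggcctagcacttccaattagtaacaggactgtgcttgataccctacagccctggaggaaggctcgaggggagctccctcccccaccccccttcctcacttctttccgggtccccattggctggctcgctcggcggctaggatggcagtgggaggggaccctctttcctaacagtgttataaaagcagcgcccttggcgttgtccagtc
The Snai1 window held the E-box, starting 126 bases before the transcription start, and was the only one of the 9 windows with it. Of all 32851 windows in the table, 17.2% hold this E-box. The Zeb2 window shown, one of 4 for that gene, held AP-1 sites starting 189 and 132 bases before the start. It was the only one of the 9 windows with an AP-1 site, and 6.75% of all windows hold one. A GC box stood in 5 of the 9 windows, from 3 genes (Zeb2, Twist1 and Twist2), and in 32.7% of all windows. Of these windows, 2 overlap in Zeb2 and hold the same GC box, so it is counted in both. The decamer of the p53 family consensus, to which p63 belongs, was found in 2 overlapping Zeb2 windows that are not shown, and in 7.13% of all windows. The Vim window held none of the 4 motifs, and neither did the Pdgfra window and 1 Zeb2 window, which are not shown. A match is a stretch of letters and does not show that a factor binds there.

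Vim, which encodes the intermediate filament of mesenchymal cells, was the most abundant of the 10 genes. It measured 31.3, 5.46 and 13.0 TPM in the knockout libraries, against 37.2, 22.01 and 25.9 TPM in the wild-type libraries. Knockout libraries 2 and 3 were below every wild-type library, while knockout library 1 lay among them. The mean was 16.6 ± 13.3 TPM in knockout cells and 28.4 ± 7.89 TPM in wild-type cells (mean ± SD, n = 3 per group), and the spread within the knockout was as large as the difference. The log2 fold change was -1.01 (SE 0.54, limma adjusted p = 0.39, exact two-sided permutation p = 0.3). Single libraries decided its size: it was -1.59 without knockout library 1 (adjusted p = 0.20) and -0.43 without knockout library 2 (adjusted p = 0.74). With array weights, which gave knockout library 3 a weight of 0.09, it was -1.29 and passed (adjusted p = 0.049, over the alternatives 0.049 to 0.74).

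Cdh2, the gene for N-cadherin, was barely present. It stood at 0.136, 0.105 and 0.169 TPM in the knockout libraries, against 0.249, 0.206 and 0.210 TPM in the wild-type libraries. The groups were apart, with the knockout lower, at values far below 1 TPM. With no filter, its log2 fold change was -0.10 (SE 0.05, limma adjusted p = 0.40). E-cadherin, its epithelial counterpart encoded by Cdh1, measured 70.2, 55.8 and 37.5 TPM in the knockout libraries, against 51.7, 45.5 and 42.6 TPM in the wild-type libraries. Those groups overlapped (log2 fold change 0.18, SE 0.26, adjusted p = 0.72).

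Pdgfra, the receptor for PDGF-A and PDGF-C on fibroblasts, came next to Vim in abundance. It measured 12.7, 4.99 and 3.77 TPM in the knockout libraries, against 8.05, 4.99 and 6.67 TPM in the wild-type libraries. Knockout library 1 was the highest of all 6 and knockout library 3 the lowest, so the groups overlapped on both sides. The means were 7.16 ± 4.85 TPM in knockout cells and 6.57 ± 1.53 TPM in wild-type cells (mean ± SD, n = 3 per group). Its log2 fold change was -0.03 (SE 0.41, limma adjusted p = 0.97) and took either sign as single libraries were left out, between -0.48 and 0.28. Pdgfrb, the receptor of pericytes and other perivascular cells, measured 2.33, 1.75 and 1.56 TPM in the knockout libraries, against 2.76, 2.03 and 1.83 TPM in the wild-type libraries. The groups again overlapped, and the log2 fold change was -0.15 (SE 0.21, limma adjusted p = 0.70, exact two-sided permutation p = 0.4). The difference between the groups was within the spread between libraries for either receptor. Without knockout library 3 the log2 fold changes were -0.38 for Zeb2 (adjusted p = 0.11), -0.99 for Vim (adjusted p = 0.22), 0.28 for Pdgfra (adjusted p = 0.54) and -0.07 for Pdgfrb (adjusted p = 0.77) with limma.

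**Figure D2:**
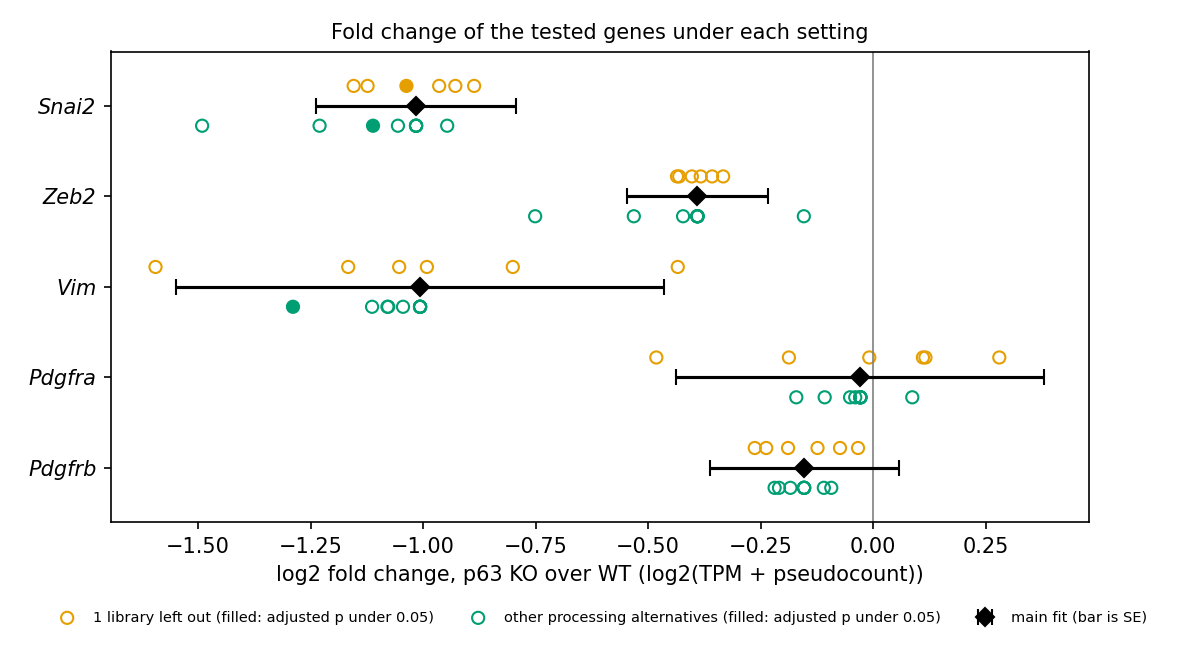
Log2 fold change, p63 knockout over wild type (horizontal axis), of the 5 tested genes. Black diamonds are the reported fit with SE bars, orange circles leave out 1 library, green circles are the other processing alternatives, and filled circles have an adjusted p under 0.05. Snai2 lies between -1.49 and -0.89 throughout, Vim spreads from -1.59 to -0.43, and Pdgfra falls on both sides of 0.

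The libraries of 1 group differed among themselves, in TPM as deposited, in a way that several of the 10 genes had in common. Of the 10 genes, 7 had their highest knockout value in knockout library 1 and 7 had their highest wild-type value in wild-type library 1. Knockout libraries 2 and 3 held the lowest value of all 6 libraries for 5 genes each, counting the shared 0 of Twist2. The same counts were not made over all genes. The median-of-ratios factors, larger where TPM of most genes run higher, were 1.21, 1.19 and 0.76 in the knockout libraries. In the wild-type libraries they were 0.99, 0.94 and 0.99, and the part of such library-wide offsets in the counts was not tested. Summed over the 10 genes, the level was 51.5, 15.4 and 21.2 TPM in the knockout libraries, against 55.9, 34.9 and 41.3 TPM in the wild-type libraries, and Vim made up 35.4% to 66.5% of these sums. Knockout library 1 thus lay within the wild-type range of the sum and the other knockout libraries below it.

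Fibroblasts, the main source of Pdgfra and Vim in connective tissue, were represented by 10 marker genes, all of them tested. Their summed level was 279, 157 and 137 TPM in the knockout libraries, against 372, 292 and 360 TPM in the wild-type libraries, so knockout library 1 was again the highest of the knockout group. Of these genes 2 passed as lower and 0 as higher, and their median log2 fold change was -1.20, against 0.09 over all genes tested. Col3a1, a fibrillar collagen, fell to 3.61 ± 2.22 TPM in the knockout, against 33.7 ± 6.73 TPM in wild-type cells (mean ± SD, n = 3 per group; log2 fold change -3.05, SE 0.43, limma adjusted p = 0.044). Col6a3, a microfibrillar collagen, fell to 0.264 ± 0.190 TPM in the knockout, against 2.29 ± 0.174 TPM in wild-type cells (log2 fold change -1.39, SE 0.18, adjusted p = 0.034). Dcn, the most abundant fibroblast marker, encodes the proteoglycan decorin and stood at 155 ± 54.0 TPM in knockout cells and 207 ± 26.7 TPM in wild-type cells (log2 fold change -0.47, SE 0.28, adjusted p = 0.42). Col6a3 reached the filter only through the wild-type libraries, where it is high, so its call is no independent support for the list. The Col3a1 and Col6a3 calls held in 9 of 16 and 5 of 15 alternatives. The part of fibroblasts in the Vim values was not tested.

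Markers of the other cells that carry these genes did not all differ alike. The 9 pericyte genes summed to 18.9, 21.1 and 16.5 TPM in the knockout libraries, against 25.5, 26.4 and 36.4 TPM in the wild-type libraries. This gap rested on Mcam, an adhesion gene of perivascular and other cells and the most abundant of the 9. Mcam measured 1.62, 2.07 and 4.82 TPM in the knockout libraries, against 7.45, 11.3 and 13.8 TPM in the wild-type libraries (log2 fold change -1.68, SE 0.37, limma adjusted p = 0.092). Without Mcam the sums overlapped, at 17.3, 18.995 and 11.7 TPM in the knockout libraries, against 18.1, 15.04 and 22.5 TPM in the wild-type libraries. Of the 6 pericyte genes tested, 3 had negative and 3 had positive log2 fold changes, and 0 passed with limma (2 at an unadjusted p under 0.05). Ndufa4l2, counted among the negative ones and among the 2, reached the filter only through the wild-type libraries. Among the 6 tested genes Rgs5, a regulator of G protein signalling in pericytes, was lower in every knockout library (log2 fold change -0.60, SE 0.26, limma adjusted p = 0.32), and Kcnj8, a potassium channel gene, was not (0.37, SE 0.34, adjusted p = 0.56). The 8 smooth muscle genes summed to 189 to 300 TPM in knockout cells and 500 to 543 TPM in wild-type cells, and they share Cnn1, Acta2 and Myh11 with the myoepithelial list.

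The summed level of the 10 endothelial genes overlapped, at 24.5 to 39.3 TPM in knockout cells and 35.3 to 38.0 TPM in wild-type cells, but single genes did not all do so. Of the 9 tested, 4 (Emcn, Egfl7, Kdr and Tek) had groups apart with the knockout lower, Tek reaching the filter only through the wild-type libraries. Emcn, the endothelial sialomucin endomucin, measured 4.15, 4.33 and 4.18 TPM in the knockout libraries, against 7.93, 6.78 and 9.36 TPM in the wild-type libraries (log2 fold change -0.78, SE 0.22, limma adjusted p = 0.15). Pecam1, the most abundant endothelial marker, overlapped (0.21, SE 0.28, adjusted p = 0.69). Flt1, also among the most abundant of the list, leaned the other way (0.89, SE 0.36, adjusted p = 0.30). Its TPM were 9.07, 6.02 and 2.97 in knockout cells and 2.36, 2.08 and 3.24 in wild-type cells, so the groups overlapped. Of the 9 genes, 5 had negative and 4 had positive log2 fold changes, and 0 passed with limma. The 4 genes at an unadjusted p under 0.05 were Emcn, Egfl7, Tek and Flt1, and Kdr was not among them. The summed level of the 7 adipocyte genes overlapped as well, at 30.9 to 220 TPM in knockout cells and 77.7 to 247 TPM in wild-type cells. All 6 adipocyte genes tested had negative log2 fold changes, with a median of -1.09, and 0 passed with limma (2 at an unadjusted p under 0.05). Pparg, the adipocyte nuclear receptor gene, was apart at 0.318, 0.280 and 0.237 TPM in the knockout libraries, against 1.23, 1.72 and 1.07 TPM in the wild-type libraries, and it too reached the filter only through the wild-type libraries. Lep, the gene for leptin, was below the filter and also apart with the knockout lower. Emcn was among the most abundant of its list, and the other genes apart were chosen after their values were seen.

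In the Schwann and neural crest list Sox10 and Erbb3 were the most abundant, and the sum was 218, 216 and 50.2 TPM in the knockout libraries, against 61.4, 56.2 and 54.0 TPM in the wild-type libraries. Sox10 was higher in every knockout library than in any wild-type library (log2 fold change 1.17, SE 0.40, limma adjusted p = 0.23). Salivary epithelium also expresses Sox10 and Erbb3. The 9 submandibular gland epithelial genes were mixed, with 5 negative and 4 positive log2 fold changes, a median of -0.08 and 1 gene that passed. That gene, Egf, the growth factor of the granular ducts, fell to 2549 ± 1208 TPM in the knockout, against 12336 ± 772 TPM in wild-type cells (mean ± SD, n = 3 per group; log2 fold change -2.38, SE 0.34, limma adjusted p = 0.044). Klk1, the kallikrein gene with the highest mean of the list, measured 12563, 6315 and 10537 TPM in the knockout libraries, against 4526, 6390 and 5004 TPM in the wild-type libraries. The Klk1 groups overlapped through knockout library 2, and the positive log2 fold change of 0.84 (SE 0.29) did not pass (adjusted p = 0.24). No marker list was at 0 in any library, and the markers below 1 TPM in all 6 libraries were Cspg4 of pericytes, Myocd of smooth muscle, Oxtr of myoepithelium and Ncam1 of the neural list.

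**Figure D3:**
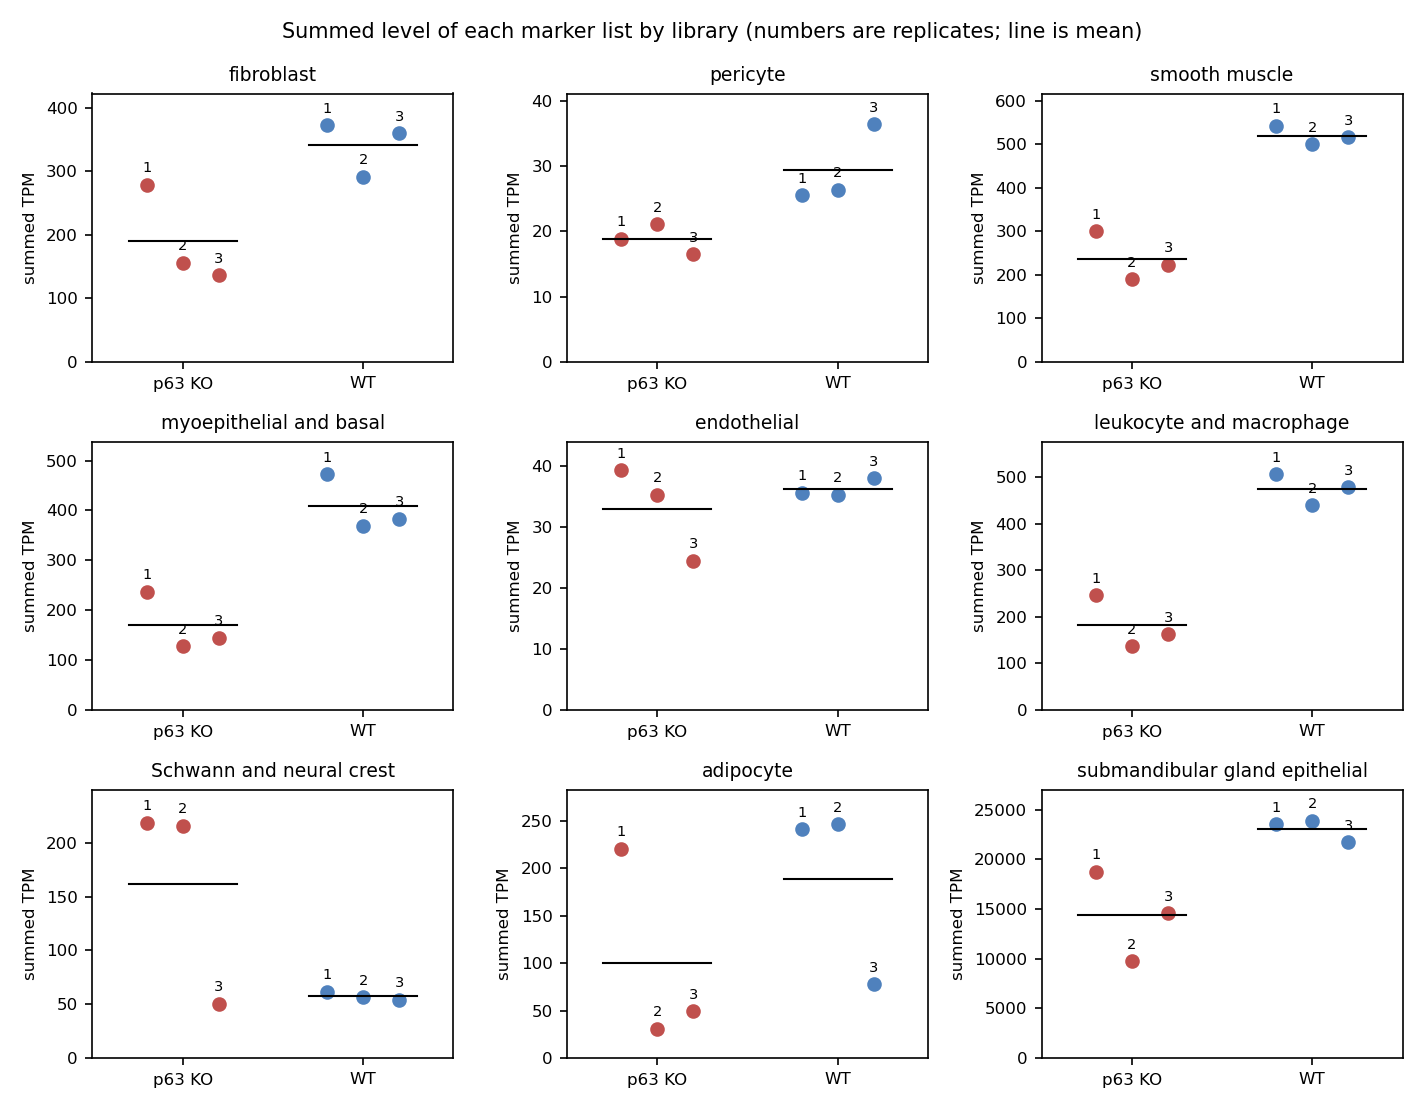
Summed TPM (vertical axis, from 0) of each marker list in the 3 p63 knockout libraries (red, left) and the 3 wild-type libraries (blue, right). Points are libraries, numbers are replicates and lines are group means. The sums of the fibroblast, pericyte, smooth muscle, myoepithelial, leukocyte and submandibular gland lists are apart with the knockout lower (the pericyte sum only with Mcam), while the sums of the endothelial, adipocyte and Schwann lists overlap.

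The partners and counterparts of the EMT factors gave no difference that passed. Of 12 further EMT transcription factors, 6 were tested and 0 passed in either direction by limma (0 at an unadjusted p under 0.05). They include the forkhead gene Foxc1, at 19.8 ± 5.96 TPM in knockout cells and 14.9 ± 1.07 TPM in wild-type cells (mean ± SD, n = 3 per group). Tcf12, an E-protein with which TWIST proteins pair, had 13.6 ± 3.49 TPM in knockout cells and 10.6 ± 0.900 TPM in wild-type cells. The median log2 fold change of the 6 tested factors was 0.25, against -0.39 for the 5 tested members and 0.09 for all genes tested. The knockout libraries differed among themselves: Tcf12 measured 14.4, 16.6 and 9.75 TPM in knockout libraries 1, 2 and 3, against 10.4, 9.77 and 11.5 TPM in wild-type libraries 1, 2 and 3, so knockout libraries 1 and 2 were above the wild-type range and knockout library 3 was at its lower edge.

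The listed corepressors through which SNAIL and ZEB proteins act, and the listed regulators of these proteins, were all expressed. All 13 were tested and 0 passed by limma (1 at an unadjusted p under 0.05), with 5 negative and 8 positive log2 fold changes and a median of 0.06. Ctbp1, a corepressor that ZEB proteins recruit, was at 52.2 ± 12.4 TPM in knockout cells and 50.5 ± 1.74 TPM in wild-type cells (mean ± SD, n = 3 per group; log2 fold change 0.02, SE 0.22, adjusted p = 0.96). Its paralogue Ctbp2 stood at 3.20, 3.55 and 4.10 TPM in the knockout libraries, against 6.11, 5.89 and 6.17 TPM in the wild-type libraries, with the groups apart (log2 fold change -0.62, SE 0.20, adjusted p = 0.23). Ctbp2 was chosen for mention after its values were seen. Kdm1a, the histone demethylase that SNAIL recruits, measured 36.8, 34.2 and 12.1 TPM in the knockout libraries, against 15.9, 15.2 and 12.6 TPM in the wild-type libraries (log2 fold change 0.74, SE 0.41, adjusted p = 0.39), so knockout library 3 differed from the other knockout libraries. Hdac2, a deacetylase of the same complexes, had a log2 fold change of -0.34 (SE 0.21, adjusted p = 0.43).

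Epithelial genes that the EMT factors repress, or that hold the epithelial state, were tested in full. Of 20, 0 passed in either direction by limma (3 at an unadjusted p under 0.05), 12 had positive and 8 negative log2 fold changes, and the median was 0.17. The keratin gene Krt18 measured 907, 1059 and 272 TPM in the knockout libraries, against 411, 379 and 368 TPM in the wild-type libraries. Knockout libraries 1 and 2 were above all wild-type libraries and knockout library 3 was below them (log2 fold change 0.73, SE 0.48, adjusted p = 0.45). Its partner Krt8 (0.17, SE 0.24, adjusted p = 0.72) and Epcam (-0.34, SE 0.23, adjusted p = 0.46) did not pass either. Chosen after its values were seen, the ductal keratin Krt19 lay apart at 2.85, 1.27 and 3.995 TPM in the knockout libraries, against 10.2, 11.6 and 7.71 TPM in the wild-type libraries (log2 fold change -1.61, SE 0.33, adjusted p = 0.085).

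The list of matrix and adhesion effectors of mesenchymal cells, which leaves out the collagens of the fibroblast list, gave no call either. Of 16 such effectors, 15 were tested and 0 passed by limma (6 at an unadjusted p under 0.05), with 11 negative and 4 positive log2 fold changes and a median of -0.48. Fap, counted among the 6 and among the 11, reached the filter only through the wild-type libraries, which favours a lower value in the knockout. Lgals1, the lectin galectin-1 of stromal cells, stood at 13.7, 9.04 and 23.1 TPM in the knockout libraries, against 49.95, 42.4 and 30.7 TPM in the wild-type libraries. Galectin-1 values were apart between the groups with the knockout lower, though the log2 fold change of -1.43 (SE 0.35) did not pass (adjusted p = 0.12). The integrin subunit gene Itgb1 (-0.29, SE 0.21, adjusted p = 0.48) and the hyaluronan receptor gene Cd44 (-0.48, SE 0.38, adjusted p = 0.52) did not pass. Lox, the collagen cross-linking enzyme, went the other way and was chosen after its values were seen. It measured 16.1, 5.44 and 2.04 TPM in the knockout libraries, against 1.16, 0.550 and 0.542 TPM in the wild-type libraries (log2 fold change 2.01, SE 0.56, adjusted p = 0.16). Knockout library 1, with the highest Pdgfra and Twist1, also had the highest Lox.

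The genes of PDGF signalling gave no call. Pdgfa, a ligand of Pdgfra, measured 29.2, 45.8 and 20.4 TPM in the knockout libraries, against 53.7, 59.3 and 56.3 TPM in the wild-type libraries. Every knockout library lay below the wild-type ones (log2 fold change -0.88, SE 0.30, limma adjusted p = 0.23). Pdgfd, a ligand of Pdgfrb chosen for mention after its values were seen, stood at 10.6, 8.87 and 10.7 TPM in the knockout libraries, against 19.1, 21.7 and 23.3 TPM in the wild-type libraries, with the groups apart (log2 fold change -1.01, SE 0.20, adjusted p = 0.079). The kinase adaptor gene Pik3r1 (0.09, SE 0.40, adjusted p = 0.91) and the phosphatase gene Ptpn11 (0.55, SE 0.37, adjusted p = 0.46), which act below the receptors, did not pass. Of 11 genes of this list 10 were tested and 0 passed by limma (2 at an unadjusted p under 0.05).

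Of the cadherins and catenins, 8 of 9 were tested and 0 passed by limma (2 at an unadjusted p under 0.05). The 2 were Cdh3 (log2 fold change -0.72, SE 0.23, limma adjusted p = 0.22) and Cdh11 (-0.80, SE 0.30, adjusted p = 0.27). Both had groups apart with the knockout lower and were named after their values were seen. Of the 8, 3 had negative and 5 had positive log2 fold changes. The 3 most abundant of the list, all catenin genes, showed no difference beyond the spread between libraries. Their log2 fold changes were -0.06 for Ctnnb1 (SE 0.17), 0.45 for Ctnna1 (SE 0.31) and 0.19 for Ctnnd1 (SE 0.30). Of 6 filament genes related to vimentin, 3 were tested and 0 passed by limma (1 at an unadjusted p under 0.05). Synm, encoding synemin, a filament protein that assembles with vimentin or desmin, stood at 2.95, 3.71 and 3.01 TPM in the knockout libraries, against 5.20, 7.21 and 8.20 TPM in the wild-type libraries, with the groups apart (log2 fold change -0.88, SE 0.24, adjusted p = 0.14). Des, the muscle filament desmin, overlapped at 0.485 to 1.46 TPM in knockout cells and 1.05 to 1.29 TPM in wild-type cells.

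**Figure D4:**
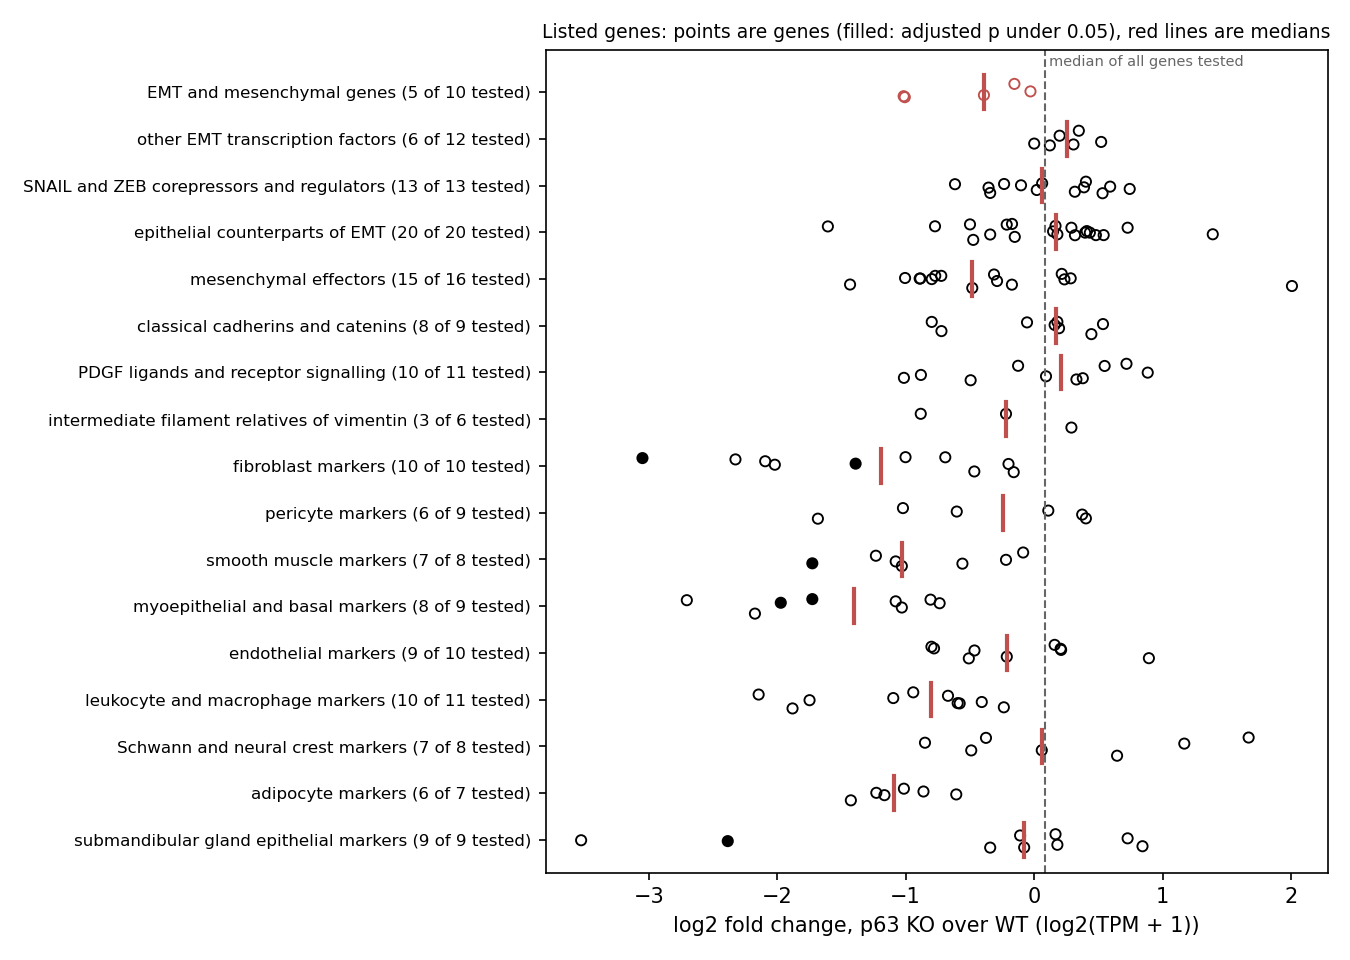
Log2 fold change, p63 knockout over wild type (horizontal axis), of every tested gene in each list. Points are genes, filled points have an adjusted p under 0.05, red lines are list medians and the dashed line is the median of all genes tested (0.09). The median is -0.39 for the 5 tested members (top, red circles), -1.20 for fibroblast markers and 0.17 for epithelial genes, and filled points occur in the fibroblast, smooth muscle, myoepithelial and submandibular gland lists.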

How the data were processed

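RNA was extracted from isolated submandibular gland epithelial cells and made into TruSeq libraries, per the labels' protocols. The authors deposited TPM, which the labels describe as raw counts normalised to gene length and to library size. The submitters' processing notes name DESeq2 1.20.0, featureCounts 1.5.1, Bowtie2 2.2.6 and TopHat2 2.1.1, and the build mm9. For annotation and strand setting, not given in the sources used here, nothing is assumed. TPM keeps no depth, so no counting error is given, and with a fixed total a change in very abundant genes shifts the rest.

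The genotype label set the groups, and replicate numbers follow accession order. The labels do not say that libraries came from separate mice, so p-values measure the spread between libraries. Tests used the genes that reached 1 TPM in 3 or more libraries, on log2(TPM + 1) with limma 3.58.1 under R 4.3.3 (trended prior variance). Adjusted p-values are two-sided, with Benjamini-Hochberg adjustment over the 11268 genes, or over the 18137 genes above 0 TPM where a value is given with no filter. Fold changes on this scale understate changes of low genes. The procedure was tested on simulated data.

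The members and the 16 other lists were chosen with earlier results of these data known. The rule for named genes took the members, Trp63 and, of each list, the passing genes and the 3 with the highest mean TPM, of which some are left out of the text. In addition Cdh1 and the markers below 1 TPM in every library are named for their role. A few genes are not reported here. The alternatives changed the pseudocount (0.1 or 0.5 TPM) or the filter (none or 5 TPM), or used median-of-ratios scaling, quantile normalization, limma without trend, robust or with array weights, a block of libraries with neighbouring index numbers, and leaving out each library. Quantile normalization acted on the log2 values of the tested genes in the fits, and on the TPM of all genes above 0 in the check for overlap. Plots used Python 3.11.15 and matplotlib 3.10.9.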

Additional observations from a re-analysis of the deposited data

How the results depend on the processing

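The number of genes that passed, 44 of all tested, was 25 with a pseudocount of 0.1 TPM, 11 with no filter, 29 with a filter of 5 TPM, 73 with median-of-ratios scaling, 72 with quantile normalization and 4822 with array weights. Leaving out 1 library gave 0 to 5127 genes, the most without knockout library 3, 11 and 16 without knockout libraries 1 and 2, and 1, 0 and 0 without wild-type libraries 1, 2 and 3, with 879, 1024 and 1020 genes at unadjusted p under 0.05. Of the EMT and mesenchymal genes 0 passed, except 2 with array weights (Snai2 and Vim) and 0 to 1 when a library was left out (Snai2 without knockout library 3). The median log2 fold change of all genes was 0.09, and 0.01 after median-of-ratios scaling.

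Snai2, Zeb2 and Pdgfrb kept a negative log2 fold change in all 15 alternatives that gave a value, and Vim in all 16. Pdgfra turned positive in 4 of 16: with array weights (0.087), and without knockout library 2 (0.12), knockout library 3 (0.28) or wild-type library 1 (0.11); its values ranged from -0.48 to 0.28 when a library was left out, and the cause was not tested. The labels state no pairing. With the replicate block of neighbouring library indices, 31 genes and 0 members passed (Snai2 limma adjusted p = 0.12). Deviations from the group means correlated across genes at 0.17, 0.23 and 0.08 within the 3 pairs. Between knockout and wild-type libraries that are not neighbours the correlations were -0.21 to 0.03. For each knockout library the neighbouring wild-type library gave the highest value, and what the index numbers mark was not tested.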

Other observations

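Ratios within 1 library do not depend on the scaling of that library, and a pair was computed after the values had been seen. The ratio of Vim to the collagen gene Col1a2 was 2.60, 2.82 and 2.65 in knockout libraries 1, 2 and 3, against 1.39, 1.13 and 1.02 in wild-type libraries 1, 2 and 3, so Col1a2 was lower relative to Vim in every knockout library. Vim was set against no other fibroblast marker. The log2 fold change of Col1a2 was -2.02 (SE 0.50, limma adjusted p = 0.12), against -0.47 (SE 0.28, adjusted p = 0.42) for Dcn, the most abundant fibroblast marker. The ratio of Snai2 to the basal keratin gene Krt14 was 0.146, 0.125 and 0.101 in the knockout libraries, against 0.0953, 0.0589 and 0.112 in the wild-type libraries, where the groups overlapped.

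Ovol2, which encodes an epithelial repressor of EMT factors, measured 22.1, 12.8 and 2.35 TPM in the knockout libraries, against 3.78, 2.72 and 2.34 TPM in the wild-type libraries (log2 fold change 1.39, SE 0.64, limma adjusted p = 0.35). Knockout libraries 1 and 2 were above every wild-type library, and knockout library 3 lay within the wild-type range. Erbb3, a receptor tyrosine kinase gene, measured 106, 106 and 9.12 TPM in the knockout libraries, against 15.3, 14.6 and 13.1 TPM in the wild-type libraries (log2 fold change 1.67, SE 0.84, adjusted p = 0.37). Here too knockout libraries 1 and 2 were above every wild-type library, but knockout library 3 was below every one. These genes were chosen after their values were seen.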
